A study of Sus scrofa with 36 samples.

Results

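The genes described are 10 genes that mark astrocytes and Bergmann glia, GFAP, AQP4, SLC1A3, SLC1A2, HOPX, GDF10, S100B, FABP7, ALDH1L1 and SOX9, of the 31907 Ensembl gene identifiers counted in the pig cerebellum. They were taken as a list of names, not by any value, and 8 of the 10 were matched to an identifier. HOPX and S100B had no identifier in the table that pairs pig identifiers with symbols, so no value is given for them.

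RNA of cerebellum tissue was sequenced in 36 piglets, 1 library each, in a 2 × 2 design of formula fat and birth weight. The study does not say whether all of the cerebellum or a piece of it was used. All piglets were crossbred Danish landrace × Yorkshire × Duroc, born at term on a commercial farm, moved to the study at 3 days of age and killed after 3 weeks on their diet. VEG-NBW piglets had a normal birth weight and were fed vegetable oil, and VEG-IUGR piglets, born small after intrauterine growth restriction with an altered head shape, received the same fat. MILK-NBW and MILK-IUGR piglets of the same birth weight classes were fed bovine milk fat instead. Each group held 9 piglets. The growth restriction was spontaneous, and the label IUGR rests on low weight and head shape at birth. The piglets came from 6 litters, which the sample labels do not name.

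Astrocytes take up glutamate and potassium released by neurons, hold the water channels that line blood vessels, and supply neurons with metabolites. In the cerebellum, fibrous astrocytes lie in the white matter among myelinated axons and protoplasmic astrocytes in the granule cell layer. Bergmann glia are specialised astrocytes whose cell bodies sit around the Purkinje cells, whose processes span the molecular layer around Purkinje cell dendrites, and which keep several genes of radial glia, the embryonic stem cells of the brain. In whole tissue, fewer cells of a type and less RNA per cell cannot be told apart.

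A library from each of 3 groups stood apart in its share of read pairs left without a gene, which was 43.6% in VEG-NBW piglet 202, 64.3% in VEG-IUGR piglet 210 and 31.5% in MILK-NBW piglet 213. In the other 33 piglets this share lay between 26.7% and 30.5%. The study also left out 3 libraries of low RNA integrity, which it did not name. The values below are from the 33 libraries (9 in MILK-IUGR and 8 in each other group, 16 females and 17 males in all) unless stated, with 15516541 to 23027502 read pairs counted on genes. All 8 members passed the filter on low counts and were among the 15356 genes tested. The tissue carried the markers of its neurons in all 33 libraries. The summed level of 6 Purkinje cell markers was 2310 to 4707 CPM, which are counts scaled to a common library total, and that of 8 granule cell markers was 3106 to 5137 CPM, with none of these genes at 0.

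GFAP (ENSSSCG00000017343, chr12:18456268-18466594 in the RefSeq annotation of Sscrofa11.1) encodes the intermediate filament protein of astrocytes. It was counted 43510 to 189079 times per library. The lowest, median and highest levels were 2625, 3907 and 7808 CPM in VEG-NBW, and 3062, 4471 and 7462 CPM in VEG-IUGR. The same values were 4069, 5672 and 6256 CPM in MILK-NBW, and 3092, 4755 and 8286 CPM in MILK-IUGR. The groups overlapped widely, and the MILK-NBW piglets were the most alike, with a coefficient of variation (CV) of 13.8% against 32.7% to 35.8% in the other groups. Piglet 216 of VEG-NBW, piglets 211 and 227 of VEG-IUGR, and piglets 226 and 207 of MILK-IUGR were the high ones.

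AQP4 (ENSSSCG00000035965, chr6:111407632-111422169) encodes the water channel of the astrocyte endfeet that surround blood vessels. Its lowest, median and highest levels were 921.7, 1045 and 1581 CPM in VEG-NBW, 875.1, 1144 and 1445 CPM in VEG-IUGR, 1078, 1214 and 1293 CPM in MILK-NBW, and 984.2, 1152 and 1913 CPM in MILK-IUGR. As with GFAP, the MILK-NBW piglets had the smallest spread (CV 7.27%, against 17.4% to 23.0% in the other groups), and every group overlapped the others.

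The 2 glutamate transporters, which clear the transmitter from the extracellular space, were steadier. SLC1A3 (ENSSSCG00000016841, chr16:21873691-21965315), the transporter that is most abundant in Bergmann glia, had lowest, median and highest levels of 927.6, 1151 and 1311 CPM in VEG-NBW and 989.4, 1034 and 1407 CPM in VEG-IUGR. In MILK-NBW they were 1087, 1157 and 1487 CPM, and in MILK-IUGR 1029, 1140 and 1307 CPM. SLC1A2 (ENSSSCG00000013296, chr2:25603892-25771840), the other astrocyte transporter, was at 93.4, 139 and 166 CPM in VEG-NBW, 98.9, 140 and 152 CPM in VEG-IUGR, 110.1, 141 and 153 CPM in MILK-NBW, and 125, 141 and 166 CPM in MILK-IUGR. The medians of the 4 groups lay within 2 CPM of each other for SLC1A2, and the groups overlapped for both genes.

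FABP7 (ENSSSCG00000004234, chr1:39872198-39876272), a fatty acid binding protein of radial glia and Bergmann glia, ranged from 391.7 CPM in a VEG-NBW piglet to 799.4 CPM in MILK-IUGR piglet 207. Its median and highest levels were 528.9 and 720.7 CPM in VEG-NBW. In VEG-IUGR its lowest, median and highest levels were 453.1, 526.2 and 715.8 CPM, in MILK-NBW 468.9, 548.9 and 697.0 CPM, and in MILK-IUGR 495.8, 548.3 and 799.4 CPM. The group medians lay close together beside these ranges. GDF10 (ENSSSCG00000010376, chr14:88522956-88534719), a secreted ligand of the TGF-β family found in Bergmann glia, ranged from 39.0 to 82.9 CPM, and both extremes came from MILK-NBW piglets. The group means were 58.0 ± 10.7 CPM (SD, n = 8) in VEG-NBW, 53.2 ± 8.77 CPM (n = 8) in VEG-IUGR, 61.1 ± 13.1 CPM (n = 8) in MILK-NBW and 55.2 ± 8.55 CPM (n = 9) in MILK-IUGR, with overlap throughout.

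SOX9 (ENSSSCG00000017251, chr12:8642154-8647315) encodes a transcription factor that specifies glia. Its lowest, median and highest levels were 34.0, 36.5 and 41.4 CPM in VEG-NBW, 34.1, 37.8 and 43.7 CPM in VEG-IUGR, 34.0, 40.7 and 47.3 CPM in MILK-NBW, and 25.3, 38.8 and 48.3 CPM in MILK-IUGR. The MILK-IUGR group held both the highest piglet and the 3 lowest piglets of the study, and its CV of 20.98% compares with 7.02% to 10.45% in the other groups. ALDH1L1 (ENSSSCG00000030626, chr7:53748585-53794777), a folate enzyme that is a general astrocyte marker, was counted only 43 to 95 times per library. Its levels ran from 2.42 to 5.87 CPM, with group medians of 3.39 to 3.74 CPM, and counting error is a larger part of its spread than for the other members.

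**Figure D1:**
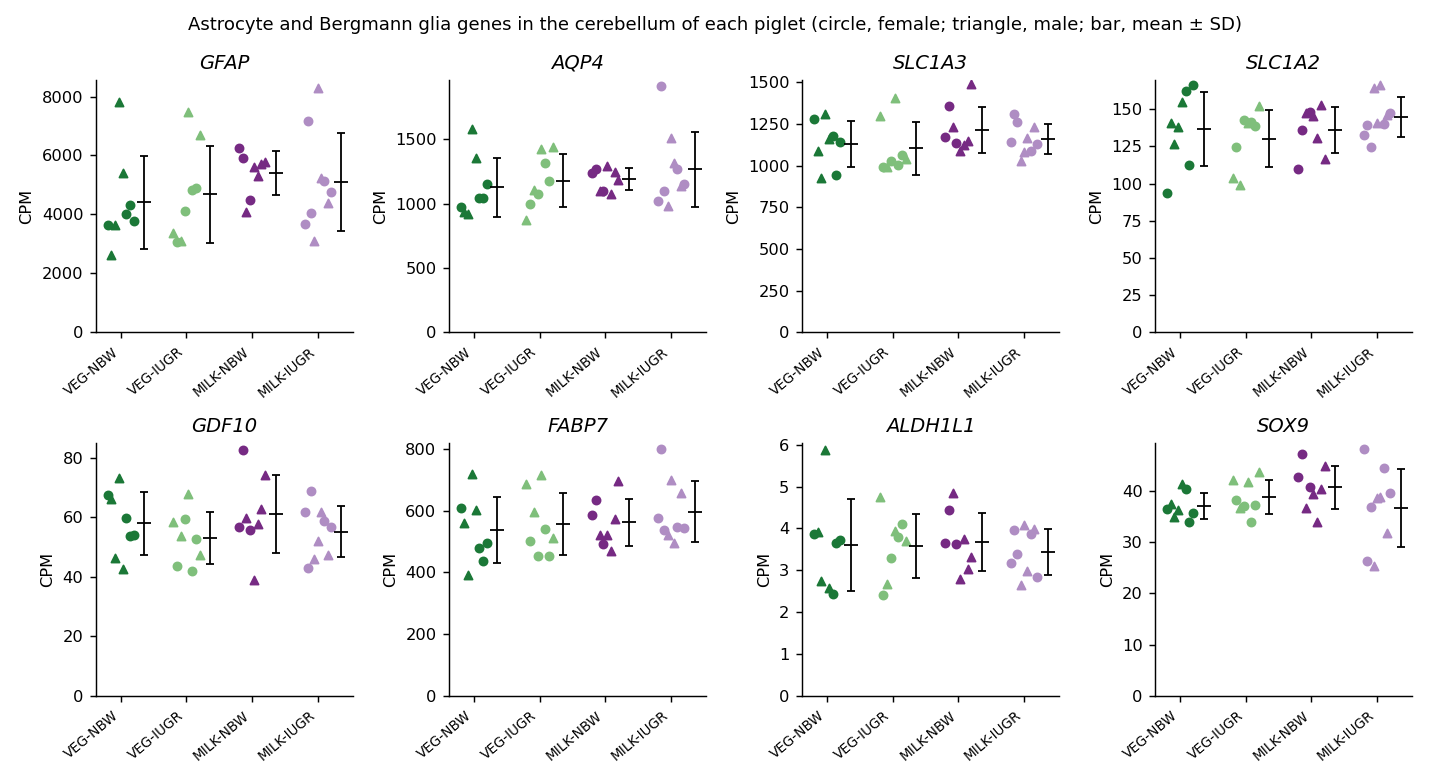
Level of each of the 8 measured genes, in CPM on a linear axis from 0, in each of the 33 piglets by group (circles are females, triangles are males), with the group mean and SD beside the points. The groups overlap for every gene, and the GFAP points spread from 2625 to 8286 CPM.

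GFAP varied more between piglets than most genes. Its CV over the 33 piglets was 29.5%, against a median of 14.3% over all genes tested. Its biological coefficient of variation in edgeR, which takes out counting error, group and sex, was 0.272 and lay above that of 84.3% of genes. AQP4 (0.170), GDF10 (0.174), FABP7 (0.159) and ALDH1L1 (0.198) lay between 59.6% and 71.4% of genes. SLC1A2 (0.139), SOX9 (0.131) and SLC1A3 (0.116) were near the all-gene median of 0.137. Among genes of at least 10 CPM, which include all members but ALDH1L1, the median was 0.112. SLC1A2 and SOX9 lay above that value and SLC1A3 close to it. This order is a description and was not tested.

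The first question of the design was whether dietary fat changed these genes. With MILK compared to VEG, none of the 8 members passed an adjusted p-value of 0.05 in edgeR's quasi-likelihood test, and 0% of the 15356 genes tested did. None of the 8 had an unadjusted p-value under 0.05 either, against 4.27% of all genes. DESeq2 and limma voom also called 0 of the 8, adjusted or not. The largest fitted difference was that of GFAP, at a log2 fold change of 0.21 (SE 0.14, 95% confidence interval −0.07 to 0.48, edgeR adjusted p = 0.98). For SLC1A3 the value was 0.09 (SE 0.06, interval −0.03 to 0.20), and for AQP4 0.09 (SE 0.08, interval −0.08 to 0.26), which was 0.0388 without piglet 207. The differences of the other 5 members were between −0.01 and 0.09. None of the 8 intervals reached a log2 value of 0.5, so that a change of this size in either direction lies outside them.

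Growth restriction was the second question. With IUGR compared to NBW, 0 of 8 members were called by edgeR, DESeq2 or limma voom, and 0 had an unadjusted p-value under 0.05, against 0% and 2.19% of all genes. The largest value was that of GDF10, which was −0.14 on the log2 scale (SE 0.09, interval −0.31 to 0.04, edgeR adjusted p = 0.9996). AQP4 and FABP7 were both at 0.08 (intervals −0.09 to 0.25 and −0.08 to 0.24), and without piglet 207 at 0.0362 and 0.0455. GFAP was at 0.01 (interval −0.26 to 0.29).

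Whether the response to the diet depended on birth weight was tested as the difference between the diet effects in IUGR and NBW piglets. Again 0 of 8 members were called and 0 had an unadjusted p-value under 0.05 by any of the 3 tools, against 0% and 6.09% of all genes. SOX9 had the largest value, −0.23 (SE 0.13, interval −0.50 to 0.04, edgeR adjusted p = 0.78). Its mean was 40.8 ± 4.26 CPM in MILK-NBW and 37.1 ± 2.61 CPM in VEG-NBW (n = 8 each), and 36.7 ± 7.71 CPM in MILK-IUGR (n = 9) and 38.9 ± 3.29 CPM in VEG-IUGR (n = 8). The interval of GFAP, −0.71 to 0.41 around −0.15 (−0.23 without piglet 207), was the widest of the 8. Males and females were compared in the same model, where 25 genes (0.163%) passed the adjusted threshold and 2.94% the unadjusted one, but no member did. The differences of the members between males and females ranged from −0.05 for SOX9 to 0.15 for GFAP.

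**Figure D2:**
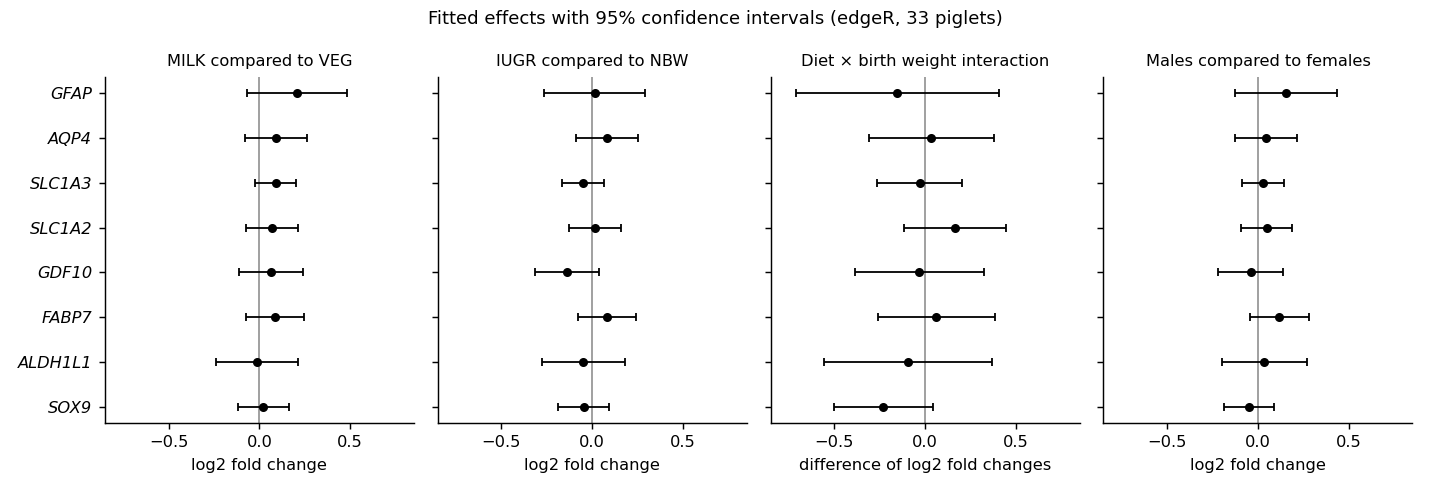
Fitted log2 fold change (point) and 95% confidence interval (bar) of each of the 8 members for diet, birth weight, their interaction and sex, from edgeR over 33 piglets. All 32 intervals include 0, and those of GFAP and ALDH1L1 are among the widest.

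The 4 contrasts between pairs of groups gave the same counts. In MILK-NBW compared to VEG-NBW, 0 of 8 members passed the adjusted threshold and 0 the unadjusted one, against 0% and 6.67% of all genes. GFAP was at 0.28 (SE 0.20, edgeR adjusted p = 0.80), and when each MILK-NBW piglet was set against each VEG-NBW piglet, the MILK-NBW piglet was higher in 81.3% of cases. A two-sided exact permutation test of log2 CPM gave p = 0.0735 for this gene and p = 0.0601 for SOX9, whose fitted value was 0.14 (SE 0.10). These were the smallest p-values of 32 such exact permutation tests (8 genes in 4 contrasts), which reached up to p = 0.970, and they were not corrected for that number. The summed level of the oligodendrocyte markers, which moved with GFAP between piglets, had a median of 21529 CPM (range 14831 to 32040) in MILK-NBW and 15706 CPM (8781 to 31846) in VEG-NBW, and its part in the GFAP value was not tested.

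In MILK-IUGR compared to VEG-IUGR, 0 of 8 members passed either threshold, against 0% and 3.9% of all genes. SLC1A2 had the largest value there, 0.15 (SE 0.10, exact permutation p = 0.0980). In VEG-IUGR compared to VEG-NBW, 0 of 8 passed either threshold, against 0% and 2.29%, and all 8 values lay between −0.12 and 0.09. In MILK-IUGR compared to MILK-NBW, 0 of 8 passed either threshold, against 0% and 6.24%, and SOX9 (−0.16, SE 0.09) and GDF10 (−0.15, SE 0.12) had the largest values. Contrasts that share a group share its piglets.

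Other genes of astrocytes and Bergmann glia were read in the same way. Of 106 listed genes for transport, ion and gap junction functions, gene regulation, metabolism, secreted products and radial glia, 98 were tested, and of 31 genes that rise in reactive astrocytes, 26 were tested. None was called by edgeR for any of the 4 effects. At an unadjusted p-value under 0.05, 5 of the 98 genes and 1 of the 26 reactive genes passed for diet, against 4.27% of all genes. For birth weight the counts were 3 and 1, against 2.19% of all genes, for the interaction 1 and 2, against 6.09%, and for sex 1 and 2, against 2.94%. The median log2 fold change of the 98 genes was 0.04 with MILK compared to VEG, −0.02 with IUGR compared to NBW and −0.08 in the interaction, where the medians over all genes tested were 0.00 in each.

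The genes with the smallest p-values for diet, none called, were NFIB, a transcription factor of glial differentiation, FADS2, a fatty acid desaturase, and NPAS3, a transcription factor of astrocytes. NFIB was at −0.21 (SE 0.08), FADS2 at 0.13 (SE 0.05) and NPAS3 at 0.19 (SE 0.08), each with an unadjusted p of 0.0161 or less and an edgeR adjusted p of 0.98. For birth weight they were THBS2, a matrix glycoprotein that promotes synapse formation (−0.38, SE 0.13), DIO2, the enzyme that activates thyroid hormone (0.29, SE 0.14), and ALDOC, a glycolytic enzyme (−0.25, SE 0.12). For the interaction they were GBP2, an interferon-induced GTPase (0.40, SE 0.13), PTGS2, the inducible prostaglandin synthase (1.30, SE 0.55), and BCAN, a proteoglycan of the extracellular matrix (−0.26, SE 0.13). For males compared to females they were PTX3, a secreted pattern recognition protein (0.25, SE 0.09), SERPING1, the inhibitor of complement C1 (0.17, SE 0.07), and MFGE8, which marks cells for engulfment (−0.14, SE 0.07).

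Variation of the members between piglets was read with the differences between groups and sexes taken out. For each member, the other genes were tested for variation with it over the 33 piglets in limma, with the 4 group means and sex in the model, and a pair of members is given as called where the adjusted p-value over all genes was under 0.05 in both directions, with each gene of the pair as the predictor in turn. Correlations are of log2 CPM after group and sex means were removed, with permutation p-values from 100000 permutations. All genes of 1 piglet share 1 library and its scaling. Of the 28 pairs of members, 4 were called, all of them positive, and the median r of all 28 was 0.28.

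GFAP and AQP4 were the closest pair (r = 0.88, Spearman's rho = 0.89, each with a permutation p of 1e-05, the smallest the permutations can give). The limma adjusted p-values were 8.98e-08 and 2.23e-07. Without the 2 piglets farthest from the median of GFAP, r was 0.87. It was 0.88 in the 16 females and 0.91 in the 17 males, and between 0.76 (MILK-NBW) and 0.91 (MILK-IUGR) within the 4 groups. AQP4 was the only other member called with GFAP, in a background of 10.5% of 15355 genes that varied positively with GFAP and 7.58% that varied negatively. With AQP4 as the predictor, the shares were 9.89% and 9.97%.

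SLC1A3 and FABP7 formed the next pair (r = 0.76, permutation p = 1e-05, rho = 0.65, permutation p = 0.00012). The limma adjusted p-values were 0.000609 and 0.000615. Without the 2 farthest piglets r was 0.72, and it was 0.69 in females and 0.79 in males. It ranged from 0.52 in MILK-IUGR to 0.91 in VEG-NBW. SLC1A3 and GDF10 had an r of 0.58 (permutation p = 0.00038, rho = 0.57, permutation p = 0.00063), which was 0.49 without the 2 farthest piglets, 0.45 in females and 0.66 in males. Within groups it was −0.02 in MILK-IUGR and 0.58 to 0.82 in the other 3, a difference that was not tested. The limma adjusted p-values of this pair were 0.0119 and 0.0404, and with DESeq2's size factors 1 of them became 0.0552. All genes varying positively with SLC1A3 made up 6.17%, with FABP7 7.28% and with GDF10 1.62%.

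AQP4 and FABP7 were also called (r = 0.48, permutation p = 0.00446, rho = 0.35, permutation p = 0.0435, limma adjusted p 0.0285 and 0.0366). This relation rested on few piglets. Without the 2 farthest from the median of AQP4, r was 0.24, and without piglet 207 alone it was 0.35 with adjusted p-values of 0.184 and 0.219. Piglet 207 of MILK-IUGR had the highest AQP4 and the highest FABP7 of the 33.

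GFAP and SLC1A3, each the centre of a pair, were not called with each other (r = 0.33, permutation p = 0.0658, rho = 0.24, permutation p = 0.176, limma adjusted p 0.213 and 0.205). SLC1A2, ALDH1L1 and SOX9 were called with no other member. The r of SLC1A2 was 0.29 with AQP4 and −0.30 with FABP7, the ends of its range, although 2.12% of all genes were called as varying positively with it. For SOX9 this share was 0.449%, and its highest r was 0.44 with GDF10. For ALDH1L1 it was 0%, and its highest r was 0.46 with FABP7 (permutation p = 0.00752, rho = 0.41, permutation p = 0.0196, limma adjusted p 0.0713 and 0.414).

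Library quality moved with part of this pattern. Even within the 33 libraries, the share of read pairs not assigned to a gene varied negatively with SLC1A3 (r = −0.47, permutation p = 0.00589, rho = −0.36, permutation p = 0.0383) and FABP7 (r = −0.46, permutation p = 0.00778, rho = −0.27, permutation p = 0.131). The same held for AQP4 (r = −0.43, permutation p = 0.0121, rho = −0.31, permutation p = 0.0820) and GFAP (r = −0.37, permutation p = 0.0328, rho = −0.28, permutation p = 0.119). The smallest p adjusted over the 24 relations of members with library measures was 0.0934, and without the 2 farthest piglets these 4 r were −0.30, −0.22, −0.27 and −0.25. With this share also removed, GFAP with AQP4 (r = 0.87) and SLC1A3 with FABP7 (r = 0.69) were still called. AQP4 with FABP7 was not (r = 0.36), nor SLC1A3 with GDF10, where r was 0.59 and 1 of the 2 adjusted p-values was 0.0534. The number of genes called positively fell from 948 to 78 with SLC1A3 and from 1118 to 133 with FABP7 when this share was removed, and from 1605 to 1057 with GFAP and from 1518 to 861 with AQP4. The marker and astrocyte gene counts given below for SLC1A3 and FABP7 were made without this removal. The total count had an r of at most 0.12 in size with every member. The number of genes detected had an r of −0.33 with SLC1A3 (permutation p = 0.0610, rho = −0.40, permutation p = 0.0230, adjusted p = 0.293). This r was −0.18 without the 2 farthest piglets. FABP7 was at −0.26 with this number (permutation p = 0.150), and the other members were at 0.12 or less in size.

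The 3 libraries left out changed the picture when they were added back. In piglet 210, GFAP was at 13676 CPM, the highest value of all 36, while AQP4 was at 64.8, SLC1A3 at 135 and FABP7 at 127 CPM, each the lowest, and SLC1A2, GDF10, ALDH1L1 and SOX9 had no count. SLC1A2 was at 25.4 CPM in piglet 202 and 10.7 CPM in piglet 213. With all 36 libraries, 26 of the 28 pairs were called, 71.9% of all genes had an r above 0.5 with AQP4, and the r of GFAP with AQP4 became −0.32.

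**Figure D3:**
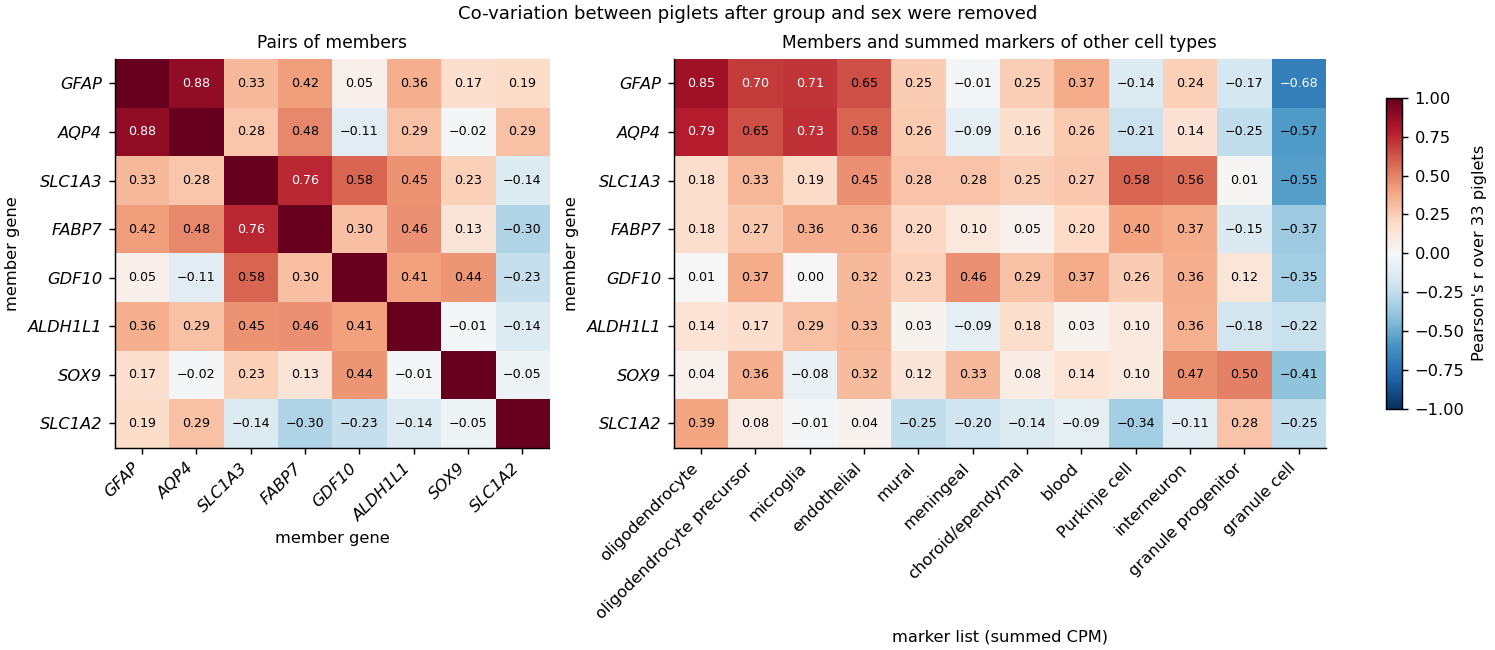
Pearson's r over 33 piglets, after group and sex means were removed, between the 8 members (left) and between each member and the summed markers of 12 other cell types (right), with red for positive and blue for negative values. GFAP and AQP4 share their row pattern, with r of 0.85 and 0.79 for oligodendrocyte markers, while SLC1A3 has 0.18 for these and 0.58 for Purkinje cell markers.

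The 2 pairs also differed in some, but not all, of the other cell types whose markers they varied with. GFAP was called with all 7 markers of oligodendrocytes, the cells that make myelin (median r 0.81), with 6 of 7 of microglia (median r 0.61) and with 3 of 4 of oligodendrocyte precursors (median r 0.54). AQP4 was called with 7, 6 and 2 of them (median r 0.71, 0.66 and 0.51). Both ran against granule cell markers, of which GFAP was called negatively with 6 of 8 (median r −0.56) and AQP4 with 5 of 8 (median r −0.46). With SLC1A3, 0 of 7 oligodendrocyte markers were called (median r 0.16), but 3 of 6 Purkinje cell markers were (median r 0.51), namely PCP2 (r = 0.79), PVALB (r = 0.74) and CA8 (r = 0.60), and 2 of 8 granule cell markers were called negatively, in a background of 5.81% of genes. FABP7 was called with 2 of 6 Purkinje cell markers, PVALB (r = 0.63) and PCP2 (r = 0.52), and with 0 of 7 oligodendrocyte markers. These single markers are named because of their values.

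Summed marker levels gave the same order for GFAP, AQP4 and SLC1A3. The 7 oligodendrocyte markers together ranged from 8781 to 49072 CPM over the 33 piglets, a wider range than the 2310 to 4707 CPM of the Purkinje cell markers. GFAP had an r of 0.85 with the oligodendrocyte sum (rho = 0.84, permutation p = 1e-05 for both, the smallest possible). This r was 0.83 without the 2 farthest piglets, 0.78 in females and 0.87 in males, and the adjusted p over the 96 relations of 8 members and 12 lists was 0.000192. For AQP4 r was 0.79 (rho = 0.78, permutation p = 1e-05 for both, 0.75 without the 2 farthest piglets), with the same adjusted p. For SLC1A3 it was 0.18 (permutation p = 0.317, rho = 0.18, permutation p = 0.306). With the Purkinje cell sum, SLC1A3 had an r of 0.58 (permutation p = 0.00038, rho = 0.50, permutation p = 0.00339, adjusted p = 0.00365). It was 0.46 without the 2 farthest piglets, 0.40 in females and 0.72 in males. For FABP7 the relation with the Purkinje cell sum did not pass adjustment (r = 0.40, permutation p = 0.0211, rho = 0.37, permutation p = 0.0381, adjusted p = 0.107). Its r was 0.27 without the 2 farthest piglets, 0.20 in females and 0.55 in males. The r of GFAP with the Purkinje cell sum was −0.14 (permutation p = 0.452, rho = −0.22, permutation p = 0.226).

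GFAP had an r of −0.68 with the granule cell sum (permutation p = 2e-05, rho = −0.71, permutation p = 1e-05, adjusted p = 0.00032). It was −0.65 without the 2 farthest piglets, −0.26 in females and −0.79 in males, a difference that was not tested. AQP4 (r = −0.57, permutation p = 0.00058, adjusted p = 0.00506) and SLC1A3 (r = −0.55, permutation p = 0.00083, adjusted p = 0.00613) also ran against the granule cell sum. Without the 2 farthest piglets these r were −0.51 and −0.36. In females they were −0.14 and −0.22, and in males −0.75 and −0.67, a difference that was also not tested. The summed endothelial markers had r of 0.65 with GFAP, 0.58 with AQP4 and 0.45 with SLC1A3 (permutation p = 4e-05, 0.00032 and 0.00849). In females these r were 0.21, 0.12 and 0.15, and in males 0.79, 0.81 and 0.58, a difference that was not tested. Without the 2 farthest piglets they were 0.59, 0.50 and 0.33. Of 5 single endothelial markers, 2 were called with GFAP, 2 with AQP4 and 0 with SLC1A3. With the summed microglia markers, GFAP had an r of 0.71 (rho = 0.76, 0.73 in females, 0.77 in males) and AQP4 of 0.73 (rho = 0.75, 0.60 in females, 0.86 in males). Each of these 4 coefficients over all piglets had the smallest possible permutation p, and without the 2 farthest piglets r was 0.69 and 0.70. SLC1A3 also had an r of 0.56 with the summed interneuron markers (permutation p = 0.00079, rho = 0.63, permutation p = 0.00017, adjusted p = 0.00613), at 0.55 without the 2 farthest piglets, 0.21 in females and 0.76 in males. CPM values are relative to the adjusted total of a library, so a higher share of one cell type's RNA can lower the values of others. The part of this in these relations was not tested.

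**Figure D4:**
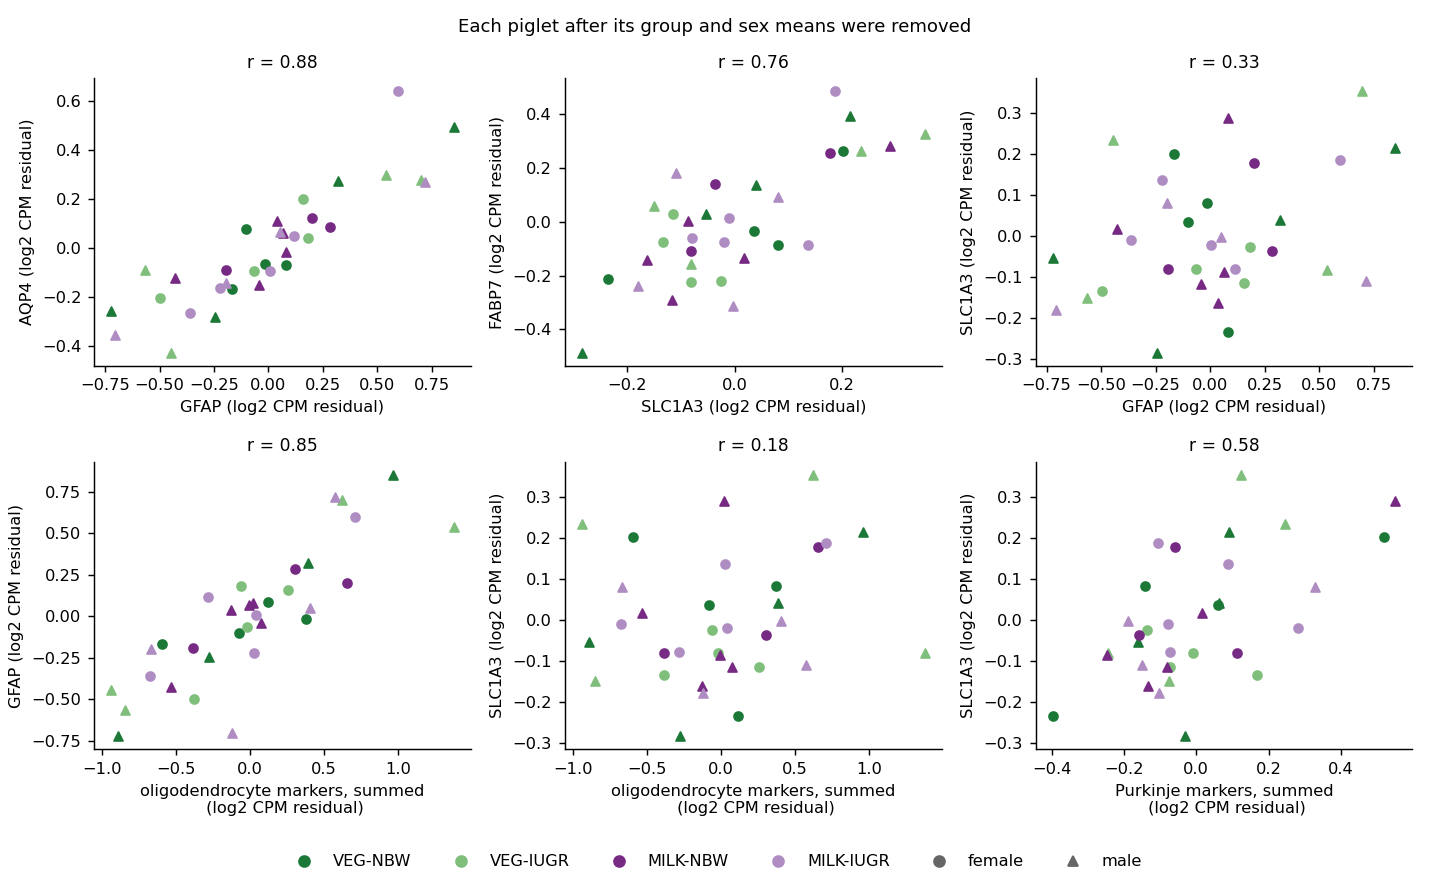
Each point is 1 of 33 piglets after group and sex means were removed (log2 CPM residuals, coloured by group, circles for females and triangles for males). GFAP follows AQP4 (r = 0.88) and the summed oligodendrocyte markers (r = 0.85), SLC1A3 follows FABP7 (r = 0.76) and, more loosely, the summed Purkinje cell markers (r = 0.58), and the plots of SLC1A3 against GFAP (r = 0.33) and oligodendrocyte markers (r = 0.18) are diffuse.

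The difference between GFAP and SLC1A3 was itself tested, in a limma model added after the correlations had been seen, with both genes as predictors of every other gene, each scaled to an SD of 1. GFAP was the stronger predictor of AQP4, by 0.21 on the log2 scale per SD (SE 0.04, adjusted p = 0.00107), and of all 7 oligodendrocyte markers. The markers' differences ranged from 0.35 for MAG to 0.56 for MBP, the myelin basic protein. SLC1A3 was the stronger predictor of 4 of 6 Purkinje cell markers, among them PCP2 (−0.29), CA8 (−0.27) and PVALB (−0.23). Of the 8 granule cell markers, 0 followed either gene more. Of all 15354 genes, 2.06% followed GFAP more and 0.456% followed SLC1A3 more. FABP7 (−0.11, SE 0.05, adjusted p = 0.235) and GDF10 (−0.20, SE 0.06, adjusted p = 0.0927) were not called in either direction. The counts of 7 and 4 were the same without piglet 207, with DESeq2's size factors, with group and sex means kept and with a smaller prior count, whereas with all 36 libraries they were 2 and 4. This model was not run with the share of unassigned read pairs also removed. That removal left 78 of 948 positive calls with SLC1A3 in the model of 1 predictor.

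Among the 98 other astrocyte genes, GFAP was called positively with 37 (37.8%, against 10.5% of all genes) and SLC1A3 with 35 (35.7%, against 6.17%). For AQP4 and FABP7 the count was 30 each (30.6%, against 9.89% and 7.28%), and for GDF10 it was 12 (12.2%, against 1.62%). SOX9 was called with 4 (4.08%, against 0.449%), SLC1A2 with 3 (3.06%, against 2.12%, close to the background) and ALDH1L1 with none. Negative calls were no more frequent than among all genes for GFAP (5 of 98, against 7.58%), AQP4 (7, against 9.97%), FABP7 (4, against 8.86%) and SLC1A3 (0, against 5.81%), and for SLC1A2 there were 2, against 0.983%. The lists differed in this. Of the 21 genes for gene regulation, AQP4 was called negatively with 5 and positively with 2 (median r −0.16). For GFAP these counts were 3 and 4 (median r −0.003), for FABP7 2 and 3 (−0.07), and for SLC1A3 0 and 3 (0.07). The median r over the 98 genes was 0.35 for GFAP, 0.37 for SLC1A3 and 0.02 for SLC1A2, where the median over all genes was between −0.00488 and 0.0336 for each of the 8 members. Of the 11 gap junction and ion genes, 1 was called negatively with GFAP, 1 with AQP4 and 0 with SLC1A3. Positive calls among them were 7 with GFAP, 5 with AQP4 and 6 with SLC1A3. Those called with both GFAP and AQP4 included GJA1, the gap junction protein of astrocytes (r = 0.69 and 0.75), KCNJ10, their potassium channel (r = 0.73 and 0.61), and MLC1 and HEPACAM, membrane proteins of the endfeet (r = 0.71 and 0.57, and 0.75 and 0.55). PHGDH, the first enzyme of serine synthesis, had r of 0.86 and 0.76.

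None of the 11 gap junction and ion genes followed GFAP more in the model with both predictors, where the limma adjusted p was 0.736 for GJA1, 0.334 for KCNJ10, 0.941 for MLC1 and 0.367 for HEPACAM. SLC4A4, a bicarbonate transporter and 1 of the 11, followed SLC1A3 more, by −0.12 (limma adjusted p = 0.0258). With SLC1A3, 7 of the 12 transport genes were called, and with GFAP 4. The 7 were led by GRIA1, a glutamate receptor subunit of Bergmann glia (r = 0.84), ABAT, which breaks down GABA (r = 0.80), and the metabotropic receptor GRM3 (r = 0.68). In the model with both predictors none of the 12 followed either gene more, with a limma adjusted p of 0.0919 for GRIA1, 0.235 for ABAT and 0.0818 for GRM3. Of the other genes, CHRDL1, a secreted regulator of synapse maturation, followed SLC1A3 more, by −0.15, and NFIB did so by −0.21. WIF1, a secreted inhibitor of Wnt signals, followed GFAP more, by 1.09, as did the protease inhibitor A2M (0.54), the sterol enzyme MSMO1 (0.20) and PHGDH (0.21). Of the 26 reactive astrocyte genes, 5 (19.2%, against 10.5% of all genes) were called with GFAP, CD109 (r = 0.85), AMIGO2 (r = 0.73), C3 (r = 0.65), S100A10 (r = 0.55) and CD44 (r = 0.55), and none with SLC1A3, against 6.17%. CD109, AMIGO2 and C3 followed GFAP more in the model with both predictors, and S100A10 (limma adjusted p = 0.667) and CD44 (0.739) were not called there. The genes in these 2 paragraphs on other astrocyte genes were named after their values were seen.

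The single genes most like each member were found over all genes with a symbol. For GFAP they included PLEKHB1 (r = 0.90) and GPT2, a mitochondrial alanine transaminase (r = 0.89). For AQP4 they were the integrin subunit ITGB8 (r = 0.89), the glutamate dehydrogenase GLUD1 (r = 0.89) and the lysosomal protein LAMP2 (r = 0.87). For SLC1A3 they were PLPP3, a lipid phosphatase (r = 0.84), GRIA1 (r = 0.84) and MPV17L2 (r = 0.84). FABP7 was closest to NDUFS5 and NDUFV2, subunits of mitochondrial complex I (r = 0.82 and 0.81), and to the centrin CETN2 (r = 0.80). GDF10 was closest to CPT1A, which carries fatty acids into mitochondria (r = 0.80), to the glycolytic enzyme GPI (r = 0.77) and to GDI2 (r = 0.76).

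SLC1A2 was closest to ARHGEF12 (r = 0.89), PTAR1 (r = 0.88) and FAM199X (r = 0.87), none of them a listed astrocyte gene. SOX9 was closest to RGMA (r = 0.77), a guidance molecule, SOX13 (r = 0.72) and GAREM2 (r = 0.72). All of these had a limma adjusted p of 0.0296 or less. ALDH1L1 was closest to NFKBIL1 (r = 0.69), MVB12A (r = 0.66) and IVD (r = 0.64), for which the limma adjusted p was 0.414.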

How the data were processed

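The authors deposited, for each of 36 piglets, raw read-pair counts per Ensembl pig gene. The submitters' processing notes name Trim Galore, HISAT2, HTSeq, DESeq2 and the build Sscrofa11.1. The annotation release and strand setting are not given in the sources used here. Of 31907 identifiers, 15029 were paired with a symbol, and gene spans are RefSeq's on Sscrofa11.1. The 5 closing lines, for read pairs without a gene, were left out of library sizes.

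Libraries 202, 210 and 213 were left out because their share of unassigned pairs stood apart in their group (Dixon's ratio above 0.493). The members, lists and these libraries were chosen with earlier results of these data known. The median library of the 33 had 18025540 read pairs counted on genes. Counts were fitted in R 4.3.3 with edgeR 4.0.16 (TMM, filterByExpr with a minimum count of 10, quasi-likelihood F test, sex as a covariate) and adjusted by Benjamini-Hochberg over all genes. Diet and birth weight were fitted without their interaction. Co-variation used limma 3.58.1 (trend) on log2 CPM with a prior count of 2. Alternatives were DESeq2 1.42.0, its size factors, limma voom with quality weights, fits without sex, other filters, all 36 libraries and leaving out piglet 207. Scripts were tested on simulated data. No libraries were identical (the closest pair had a chi-square of 6.70 per gene).

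Genes were named by rule: all members, for each effect the 3 listed astrocyte genes with the smallest p-value, and for each member the 3 genes most like it (1 of those of GFAP is not reported here). Others are said to be named after their values were seen. Levels were not compared between genes, as transcript lengths were not used here. Piglets are separate animals. The labels do not name the litters, so litter is in no model, although piglets of 1 litter are not independent.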

Additional observations from a re-analysis of the deposited data

Results flagged for a closer look

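Among the 32 sets of values tested (8 members in 4 groups), 1 value stood apart. ALDH1L1 was at 5.87 CPM in VEG-NBW piglet 216, where the other 7 piglets of that group lay between 2.42 and 3.92 CPM, and the gap was 0.564 of the whole range. Chance flags about 1 in 20 groups. Piglet 216 also had the highest GFAP of its group, at 7808 CPM.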

How the results depend on the processing

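No member was called for any effect or contrast in any of the 74 recomputed counts, and the smallest unadjusted p was 0.0469, for FABP7 between sexes without piglet 207. Of the recomputed log2 fold changes of members, 247 kept their direction and 15 changed sign, and the cause was not tested. With all 36 libraries these were ALDH1L1 for diet (0.0114) and the interaction (0.18), AQP4 (−0.00569) and FABP7 (−0.10) for birth weight, and GDF10 (0.15) and SLC1A3 (0.15) for the interaction. With limma voom they were ALDH1L1 for diet (0.0397), GFAP for birth weight (−0.0267), and AQP4 (−0.0389), GDF10 (0.0651) and SLC1A3 (0.00373) for the interaction. Without piglet 207 they were GFAP for birth weight (−0.0273), and AQP4 (−0.0581), FABP7 (−0.00354) and GDF10 (0.00784) for the interaction.

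The 4 pairs called became 26 with all 36 libraries, where the r of GFAP and AQP4 was −0.32, and 2 with the share of unassigned pairs also removed. They were 3 without piglet 207 and with size factors, 5 with group and sex means kept and 4 with a prior count of 0.5. SLC1A3 with FABP7 was called in each of these and GFAP with AQP4 in each but all 36 libraries. The 7 oligodendrocyte markers that followed GFAP more became 2 with all 36 libraries. The model with both predictors and the one with the share of unassigned pairs were added after values had been seen. No paired analysis was possible because the labels name no litter or other pairing of piglets between groups.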
